A study of Mus musculus with 6 samples.

Results

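Plexins and neuropilins, the receptors for semaphorins, were examined for binding by the neuronal RNA-binding proteins NOVA1 and NOVA2 in mouse cortex. The 10 genes were Plxna1, Plxna2, Plxna3, Plxna4, Plxnb1, Plxnb2, Plxnc1, Plxnd1, Nrp1 and Nrp2, of 22380 protein-coding genes in the GENCODE vM1 annotation. They were taken as named, and every CLIP cluster of the gene's own strand that shared 1 nt or more with the span of one of them was counted. This gave 43 of the 9988 NOVA1 clusters and 72 of the 36591 NOVA2 clusters. The samples were cortex of wild-type CD1 mice at embryonic day 18.5, with 3 HITS-CLIP libraries for NOVA1 and 3 for NOVA2. HITS-CLIP crosslinks a protein to RNA in tissue with ultraviolet light, recovers the protein with an antibody and sequences the attached RNA fragments, called tags. A cluster is a stretch of overlapping tags on one strand, and each cluster in the lists had tags from at least 2 of the 3 libraries and a tag count of at least 10, a minimum that the study calls peak height. All samples were of one genotype, strain, tissue and age, so the comparison made here was between the 2 proteins.

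Semaphorins are secreted or membrane-bound guidance cues that steer growing axons and migrating neurons in the developing cortex. Class A plexins form receptors for most class 3 semaphorins together with a neuropilin, which binds the ligand, while the plexin carries the cytoplasmic domain that acts on small GTPases. Class B plexins are known as receptors of class 4 semaphorins, Plxnc1 of Sema7a and Plxnd1 of Sema3e. NOVA proteins bind YCAY (Y is C or U), and bound near an alternative exon they can raise or lower its inclusion. Positions in 3' UTRs are further sites of NOVA binding.

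The sequences that carried the strongest or the most contrasting clusters are shown first. Each is the 30 nt of a cluster with the most YCAY, written 5′ to 3′ on the transcript strand in DNA letters from the mm9 genome, with each YCAY in capitals, that is TCAT or TCAC, or the same words with C in place of the leading T. The first set holds the 4 positions in introns of Plxna4 that both proteins shared, at chr6:32419842-32419871, chr6:32241625-32241654, chr6:32374829-32374858 and chr6:32437798-32437827 on the minus strand.
Plxna4 intron 3, 34 NOVA1 and 362 NOVA2 tags: tcttcagatatcaaaaCCACattTCATCAT
Plxna4 intron 4, 15 NOVA1 and 131 NOVA2 tags: ttgcTCATgttgactgCCATtaccctCCAT
Plxna4 intron 3, 16 NOVA1 and 60 NOVA2 tags: attTCATCACctataactgggtatgtTCAT
Plxna4 intron 3, 12 NOVA1 and 29 NOVA2 tags: ctgaagcaacCCATtcctcTCATtctCCAT

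The second set holds intron clusters of NOVA2 without an overlapping NOVA1 cluster, the highest of Plxna2, Nrp1 and Nrp2, and the Nrp2 cluster next to a coding exon. They lie on the plus strand at chr1:196492468-196492497, chr8:131007733-131007762, chr1:62827501-62827530 and chr1:62830201-62830230.
Plxna2 intron 3, 70 NOVA2 tags: ctagagggaactccttTCATtctcccTCAC
Nrp1 intron 11, 48 NOVA2 tags: atcttatTCATtcTCATactTCATttTCAT
Nrp2 intron 12, 42 NOVA2 tags: tgtttgCCATTCATTCATttatTCATTCAT
Nrp2 intron 13, 32 NOVA2 tags: aacatttcaaagagcctgcCCATTCATCAT

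The last set holds the highest 3' UTR clusters of Plxna4 and Plxna2 by NOVA1 tags and the coding clusters of NOVA1 in class A plexins to which the text returns. Both 3' UTR clusters were shared, that of Plxna4 with a NOVA2 cluster of 18 tags. The 3' UTR sequences lie at chr6:32098541-32098570 (minus) and chr1:196641499-196641528 (plus), and the coding ones at chr6:89292592-89292621 (minus), chr6:89279666-89279695 (minus) and chr1:196623859-196623888 (plus).
Plxna4 3' UTR, 121 NOVA1 tags: aagaacattcttctatCCACagcaaaTCAT
Plxna2 3' UTR, 46 NOVA1 and 65 NOVA2 tags: TCATtgaacTCATgggcacactgtgaTCAT
Plxna1 exon 6, 80 NOVA1 tags: tgtccagccgcgcaatgtgtcagTCACCAT
Plxna1 exon 22, 15 NOVA1 tags: tgaccgtgggaacgtggccTCACTCATCAT
Plxna2 exon 22, 15 NOVA1 tags: agaccgtgggaacgtggcctctcTCATCAT
These windows were picked for their YCAY, so their counts are no enrichment. In the flanks of all NOVA2 clusters of the receptor genes, 39.6% of 30 nt windows held at least 1 YCAY and 1.11% held at least 3. Those flank windows were taken at fixed steps and not picked for YCAY, so the printed windows cannot be compared with them.

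NOVA1 clusters were found in 7 of the 10 genes and NOVA2 clusters in 6, where 12.7% and 22.7% of all protein-coding genes held one. All 6 genes with a NOVA2 cluster also held a NOVA1 cluster, and Plxnb2 had NOVA1 alone. Plxna3, Plxnb1 and Plxnd1 held no cluster of either list, and neither did Plxnb3, the further class B plexin. The receptor genes had a median span of 80.9 kb against 15.4 kb over all protein-coding genes, and the part of gene length in these counts was not tested. Their RNA levels were not measured here, and in whole cortex fewer cells with a transcript and less RNA per cell cannot be told apart.

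The clusters fell unevenly over the family. Class A plexins held 34 of the 43 NOVA1 clusters (79.1%) and 57 of the 72 NOVA2 clusters (79.2%), all in Plxna1, Plxna2 and Plxna4. The neuropilins held 3 NOVA1 and 13 NOVA2 clusters. Plxna4 alone held 36 NOVA2 clusters and 54.1% of the NOVA2 tags of the family. As a share of all tags of the list, Plxna4 held 0.127% of NOVA1 tags (95% exact Poisson interval 0.114 to 0.140) and 0.1002% of NOVA2 tags (0.0949 to 0.106), so it ranked highest for both proteins. Plxna1 held 0.0745% of NOVA1 tags (0.0651 to 0.0848), and its 11 NOVA2 tags were 0.000840% of that list.

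**Figure D1:**
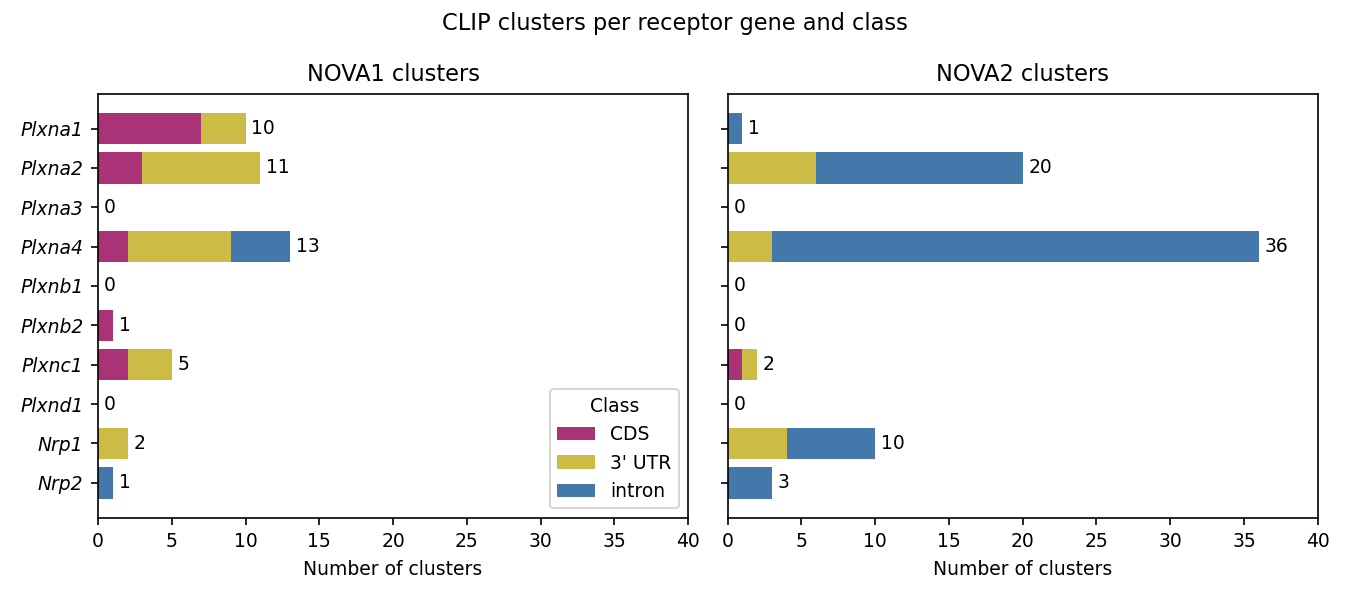
Number of clusters in each of the 10 receptor genes in the NOVA1 list (left) and the NOVA2 list (right), stacked by class (coding sequence, 3' UTR, intron), with the total at the end of each bar. Plxna1 had 10 NOVA1 clusters and 1 NOVA2 cluster, whereas Plxna4 had 13 and 36, most of the latter in introns.

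Plxna1, a class A plexin with 32 exons and 1894 codons on chr6:89266310-89312607 (minus strand, 46.3 kb), carried NOVA1 clusters over its exons and 1 weak NOVA2 cluster. Of its 10 NOVA1 clusters, 7 lay in coding sequence and 3 in the 3' UTR. The coding clusters had 10 tags in exon 2, 80 in exon 6, 13 in exon 7, 10 in exon 14, 12 in exon 16, 22 in exon 18 and 15 in exon 22. The cluster in exon 6 stood above the others by tags and covered codons 540 to 575. Together the coding clusters covered 17.0% of the coding nucleotides. The 3' UTR clusters began 362, 1958 and 2134 nt after the end of the coding sequence and had 11, 34 and 20 tags. The single NOVA2 cluster had 11 tags, lay 708 nt downstream of exon 10, and was 1610 nt away from the nearest NOVA1 cluster. No position of Plxna1 was thus shared at these thresholds. Few other genes had as many NOVA1 clusters with as few of NOVA2. Across all genes, 159 had 10 or more NOVA1 clusters, and 3 of them (Plxna1, Apc2 and Dync1h1) had at most 1 NOVA2 cluster. In NOVA1 clusters minus NOVA2 clusters, 5 genes exceeded the 9 of Plxna1. In coding clusters of NOVA1, 10 genes exceeded its 7. More NOVA1 than NOVA2 clusters were also found in Plxnc1 and Plxnb2, hence in 3 of the 7 receptor genes with any cluster, against 8.04% of all genes with any cluster.

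Plxna2, on chr1:196446023-196643063 (plus strand, 197 kb), carried both proteins in its 3' UTR and each alone elsewhere. It had 11 NOVA1 clusters, 3 in coding sequence and 8 in the 3' UTR, and 20 NOVA2 clusters, 14 in introns and 6 in the 3' UTR. The coding clusters of NOVA1 had 14 tags in exon 6, 15 in exon 22 and 10 in exon 26, and none met a NOVA2 cluster. All 14 intron clusters were of the NOVA2 list, without a NOVA1 cluster at the minimum of 10 tags. They had 10 to 70 tags (median 16), and 6 lay in intron 3 (62.5 kb) and 5 in intron 9 (7.96 kb). The highest, with 70 tags, lay 16631 nt downstream of exon 3. A cluster of 47 tags stood 26185 nt downstream of exon 3, and weaker ones of 19, 17 and 10 tags lay between it and the 70-tag cluster. In intron 9 the 5 clusters had 17, 13, 13, 12 and 26 tags, and the last 4 of these lay together within chr1:196584075-196585094. A cluster of 54 tags lay 262 nt upstream of exon 18 and one of 14 tags 316 nt downstream of exon 22. The latter exon is the one with the 15-tag coding cluster of NOVA1, 356 nt away, which was the smallest distance between an unshared coding cluster of NOVA1 and any NOVA2 cluster in the family.

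The 3' UTR of Plxna2 held 6 of its 8 NOVA1 clusters within shared positions, and all 6 of its NOVA2 3' UTR clusters were shared. Along the transcript the NOVA1 clusters began 1217, 1522, 1946, 2181, 2911, 3598, 3894 and 4397 nt after the coding sequence. Their tags in this order were 14, 10, 12, 20, 46, 15, 15 and 11. The clusters of 10 tags at 1522 nt and 15 tags at 3598 nt had no NOVA2 partner. At the 4 positions where single clusters met, NOVA1 and NOVA2 tags were 14 and 10, 46 and 65, 15 and 64, and 11 and 36. The log2 ratios of NOVA1 over NOVA2 tags were 0.49, -0.50, -2.09 and -1.71, and the 2 positions nearer the stop codon had higher ratios than the 2 nearer the 3' end. One further NOVA2 cluster lay within 10 kb downstream of the annotated gene end and was not counted.

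Plxna4, on chr6:32094565-32538192 (minus strand, 444 kb), is the longest gene of the set and held more clusters than any other member, 13 of the 43 NOVA1 clusters and 36 of the 72 NOVA2 clusters. Of the NOVA2 clusters, 33 lay in introns, with 10 to 362 tags (median 17) and 5 of them at 50 tags or more. Intron 3 (186 kb) held 17 and intron 4 (59.3 kb) held 10. The density was 9.13 clusters per 100 kb in intron 3 (5.32 to 14.6) and 16.9 in intron 4 (8.09 to 31.0), and these intervals overlapped. The 362-tag cluster at chr6:32419696-32419955 in intron 3 was the highest NOVA2 cluster of the family, 26758 nt from the nearest exon, and ranked 212 by tags in the whole NOVA2 list. It alone held 27.6% of the NOVA2 tags of the gene. On its 5' side stood NOVA2 clusters of 25, 16 and 48 tags, which were 265, 540 and 684 nt away from the NOVA1 cluster of this position and had no NOVA1 partner. A cluster of 100 tags in the same intron, 73290 nt upstream of exon 4, also lacked a NOVA1 partner and was the highest unshared cluster of the gene. Intron 1 (69.5 kb) held 3 clusters of 10, 11 and 22 tags, and introns 2, 14 and 25 held 1 each, of 23, 10 and 35 tags.

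All 4 intron clusters of NOVA1 in Plxna4 were shared, which are the sequences printed first. NOVA1 and NOVA2 tags were 34 and 362, 15 and 131, 16 and 60, and 12 and 29. The log2 ratios were -3.41, -3.13, -1.91 and -1.27. Among all intron pairs of both lists these stood at the 5.74th, 10.4th, 54.7th and 77.6th percentile, so the first 2 lay toward NOVA2 and the others near or above the median pair. In each of the 4 the window richest in YCAY was the same in both lists.

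The exons of Plxna4 showed the opposite balance. NOVA1 had 2 coding clusters, of 31 tags in exon 7 and 12 tags in exon 20, without a NOVA2 cluster. It had 7 clusters in the 3' UTR where NOVA2 had 3. The first of these began 73 nt before the end of the coding sequence and so straddled the stop codon, and the others began 132, 830, 1109, 1801, 4058 and 4190 nt after it. Their tags in this order were 17, 24, 31, 49, 121, 13 and 11. The 121-tag cluster met an 18-tag NOVA2 cluster, a log2 ratio of 2.75, at the 99.8th percentile of all 3' UTR pairs of both lists. NOVA1 held 87.1% of the tags at this pair (95% Clopper-Pearson interval 80.3 to 92.1). The other NOVA2 clusters, of 30 and 10 tags, began 2311 and 2508 nt after the coding sequence and met no NOVA1 cluster.

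**Figure D2:**
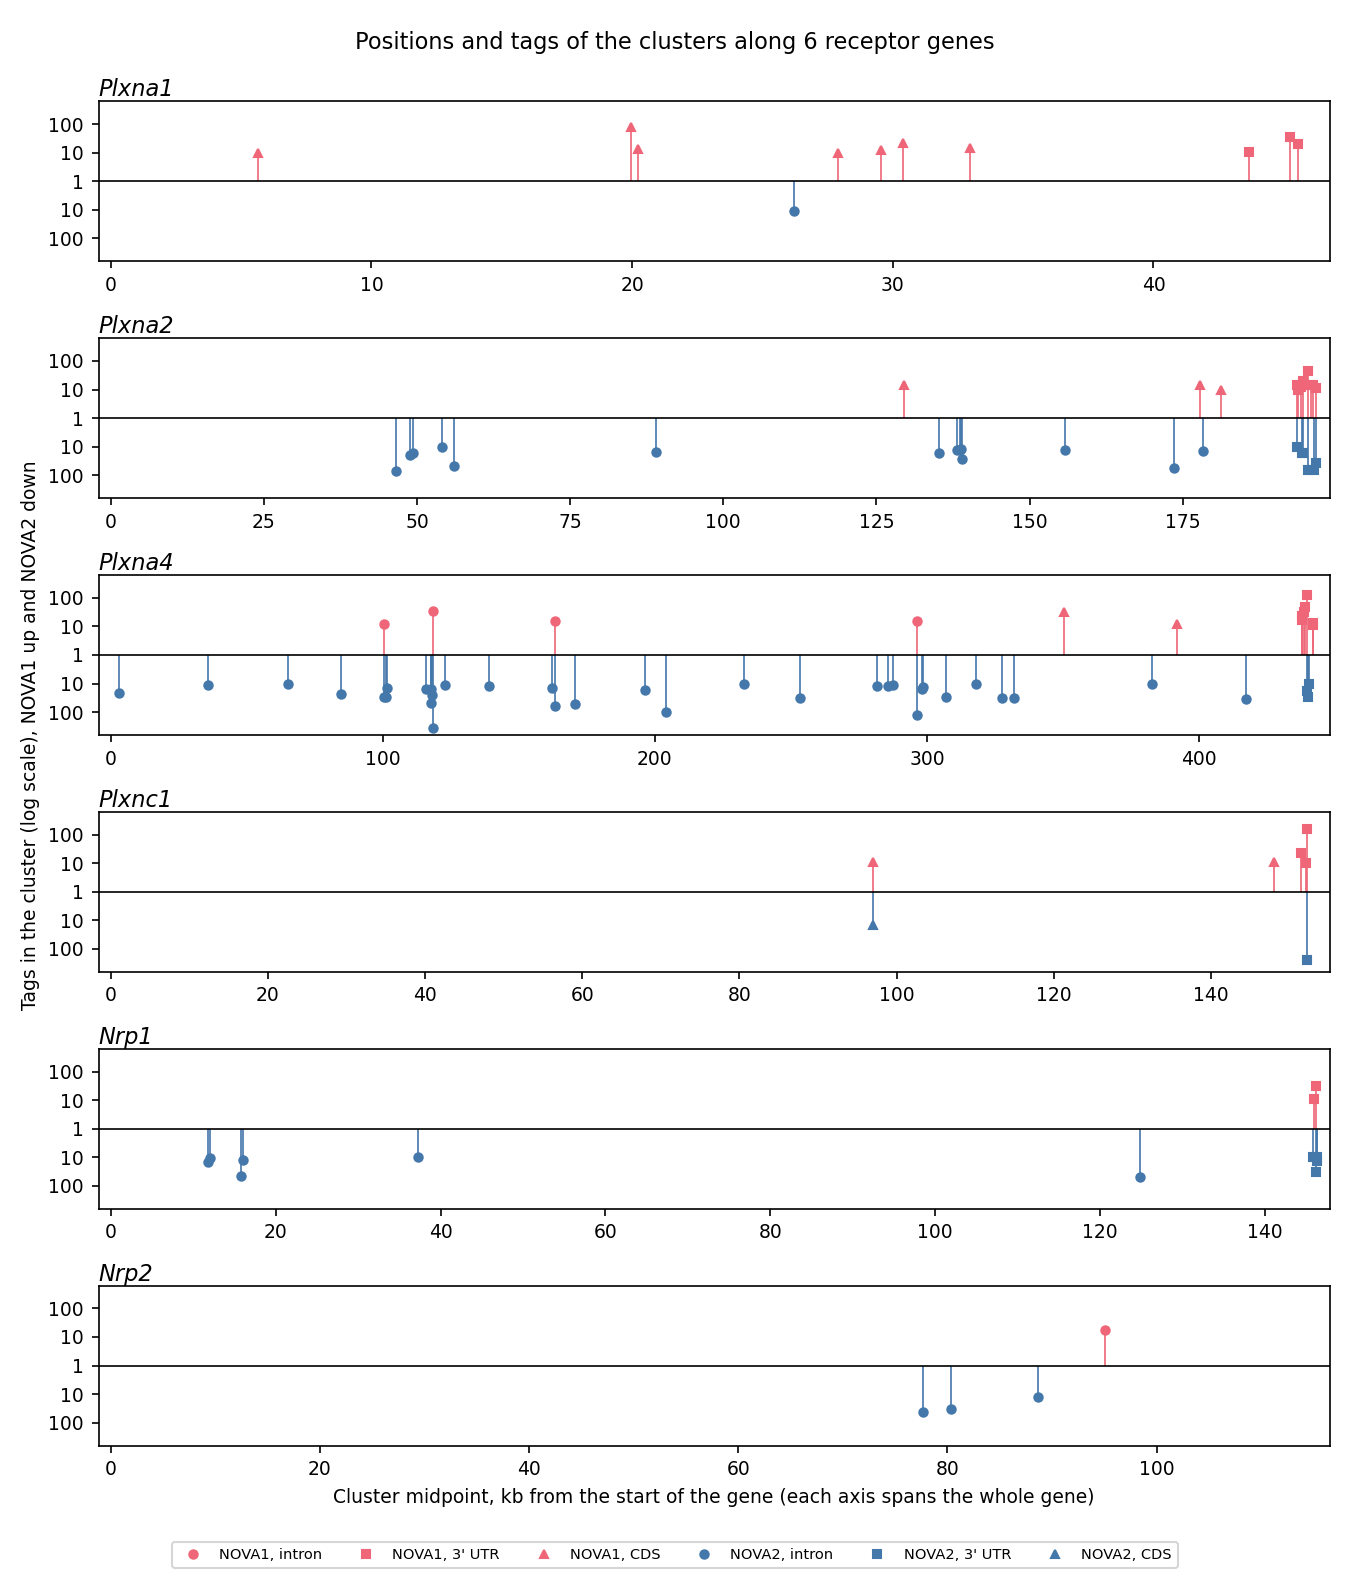
Tags of each cluster (vertical axis, log scale, NOVA1 upward and NOVA2 downward) against the position of its midpoint in kb from the start of the gene, for the 6 receptor genes with NOVA2 clusters, with the marker shape giving the class. In Plxna1 the NOVA1 markers are triangles (coding) and squares (3' UTR) with 1 NOVA2 marker below, while in Plxna4 and Plxna2 the downward NOVA2 markers run along the introns and both lists meet at the right end.

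The coding clusters of NOVA1 in class A plexins were set against each other on an alignment of the coding sequences, a comparison chosen after the values had been seen. Of the 12 such clusters, 6 lay at a position that also carried a cluster in another class A plexin, in 3 pairs. The clusters in exon 22 of Plxna1 and Plxna2, of 15 tags each, overlapped by 166 aligned nt with 80.6% identity over the Plxna1 cluster. The windows printed above share the run gaccgtgggaacgtggcc before the YCAY. The clusters in exon 6 of Plxna1 (80 tags) and Plxna2 (14 tags) overlapped by 97 aligned nt, at 43.8% identity. Those in exon 7 of Plxna1 (13 tags) and Plxna4 (31 tags) overlapped by 66 aligned nt, at 53.9% identity. The whole coding sequences were 66.3% to 68.3% identical between these 3 genes. None of these clusters had a further copy in the genome of at least 90% identity over at least 50% of its length. The clusters covered 17.0%, 6.93% and 4.38% of the coding nucleotides of Plxna1, Plxna2 and Plxna4. These shares count nucleotides, whereas any aligned nt in common made a pair, so they do not give the pairs that random placement would yield. That number was not computed, and the 3 pairs are not read as above it.

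Among the other plexins, Plxnc1 had the most clusters and tags, which are not corrected for RNA level. This receptor of Sema7a lies on chr10:94253617-94407212 (minus strand, 154 kb) and held 5 NOVA1 clusters, 3 in the 3' UTR and 2 in coding sequence, and 2 NOVA2 clusters, 1 of each class. In the 3' UTR, 920 nt after the coding sequence, 160 NOVA1 tags met 244 NOVA2 tags, the highest NOVA1 cluster of the family and the second highest of NOVA2. The log2 ratio there was -0.61. The pair held 74.4% of the NOVA1 tags and 94.6% of the NOVA2 tags of the gene. The weaker NOVA1 clusters there, with 23 and 10 tags, began 176 and 750 nt after the coding sequence and had no partner. A second pair, of 11 NOVA1 and 14 NOVA2 tags (log2 -0.35), lay in coding exon 12 and was the one shared coding position of the family. The other coding cluster of NOVA1 had 11 tags in exon 28. No cluster of either list lay in the 147 kb of Plxnc1 introns.

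The class B plexins were nearly free of clusters. Plxnb2 held 1 NOVA1 cluster of 11 tags in exon 25, at codons 1343 to 1387, an exon present in 4 and skipped in 1 of its coding transcripts. Plxnb1, Plxna3 and Plxnd1 span 24.5, 15.6 and 40.2 kb, with 15.5, 8.68 and 33.0 kb of intron. Their 0 clusters allow up to 19.3, 34.6 and 9.09 NOVA2 intron clusters per 100 kb, taking 3 counts as the limit of a count of 0, and those limits lie above the density seen in Plxna2 and Plxna4. A lower NOVA2 density in their introns was therefore not detectable. Plxnc1 differs in this: its longer introns set the limit at 2.05 per 100 kb.

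**Figure D3:**
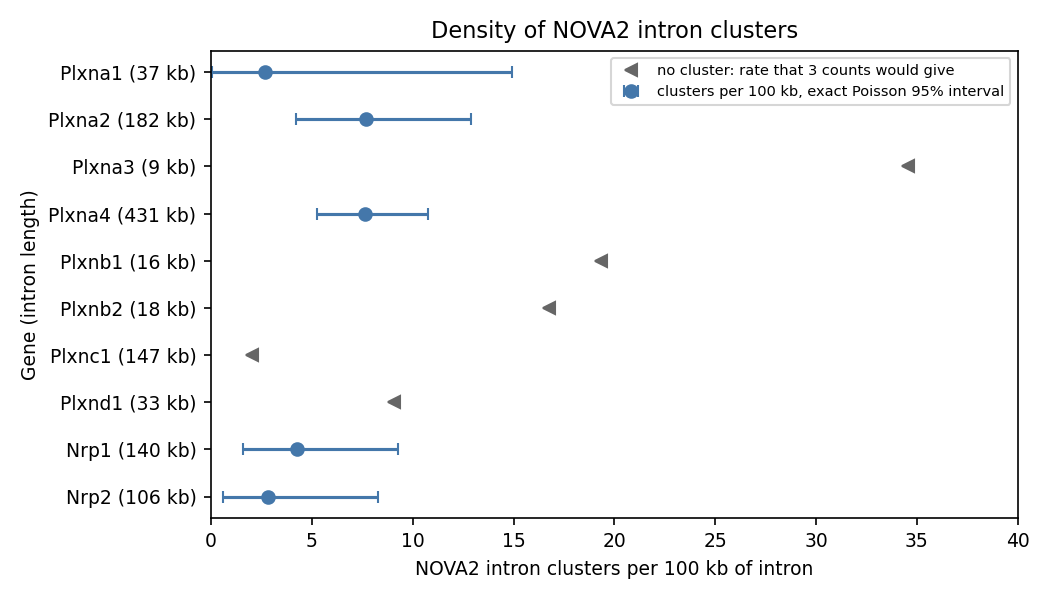
NOVA2 intron clusters per 100 kb of intron for each receptor gene, with exact Poisson 95% intervals as bars, and, for genes without a cluster, a triangle at the rate that 3 counts would give. Plxna2 at 7.69 and Plxna4 at 7.66 lie together, the limit for Plxnc1 at 2.05 lies below both intervals, and the limits of the other genes without a cluster lie above both densities.

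Per 100 kb of intron, NOVA2 clusters numbered 7.69 in Plxna2 (4.20 to 12.9), 7.66 in Plxna4 (5.27 to 10.8), 4.27 in Nrp1 (1.57 to 9.30), 2.83 in Nrp2 (0.584 to 8.28) and 2.68 in Plxna1 (0.0679 to 14.9). The intervals of these 5 genes overlapped one another, so their order was not resolved. Plxnc1, with 0, had an upper Poisson bound of 2.52, below the lower bounds of Plxna2 and Plxna4. NOVA2 intron clusters were present in 5 of the 10 receptor genes, against 18% of all protein-coding genes.

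Nrp1, a receptor component for Sema3a and for vascular endothelial growth factor, lies on chr8:130882973-131029362 (plus strand, 146 kb) and held 2 NOVA1 and 10 NOVA2 clusters. The 6 intron clusters, with 10 to 48 tags, were all of the NOVA2 list, without a NOVA1 cluster at the minimum of 10 tags. Intron 2 (55.3 kb) held 5 of them, including one of 45 tags, and the 48-tag cluster lay 2829 nt downstream of exon 11. At the far end of the 3' UTR both proteins met. There NOVA1 had 11 tags at 2102 nt and 30 tags at 2379 nt after the coding sequence. The former met a NOVA2 cluster of 10 tags (log2 0.14), and the latter, 241 nt wide, spanned 3 NOVA2 clusters of 33, 14 and 10 tags. No cluster lay in the coding sequence of either neuropilin.

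Nrp2, a receptor component for Sema3f on chr1:62749859-62865269 (plus strand, 115 kb), held 1 NOVA1 and 3 NOVA2 clusters, all in introns and none shared. The NOVA2 clusters had 42, 32 and 13 tags. The 32-tag cluster began 38 nt downstream of exon 13, a constitutive exon present in all 6 coding transcripts, and was the closest of the family to an exon. The 18-tag NOVA1 cluster and the 13-tag NOVA2 cluster lay on either side of a terminal exon at chr1:62842283-62843555 that 2 coding transcripts use and 4 skip, 1328 nt downstream and 3703 nt upstream of it. The 13-tag cluster had 25 further copies in the genome, so its position is uncertain. Of the 115 clusters, 2 others had such copies, a 15-tag one in Plxna2 (6 copies) and an 11-tag one in Plxna4 (3 copies), both of NOVA2 and in introns.

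**Figure D4:**
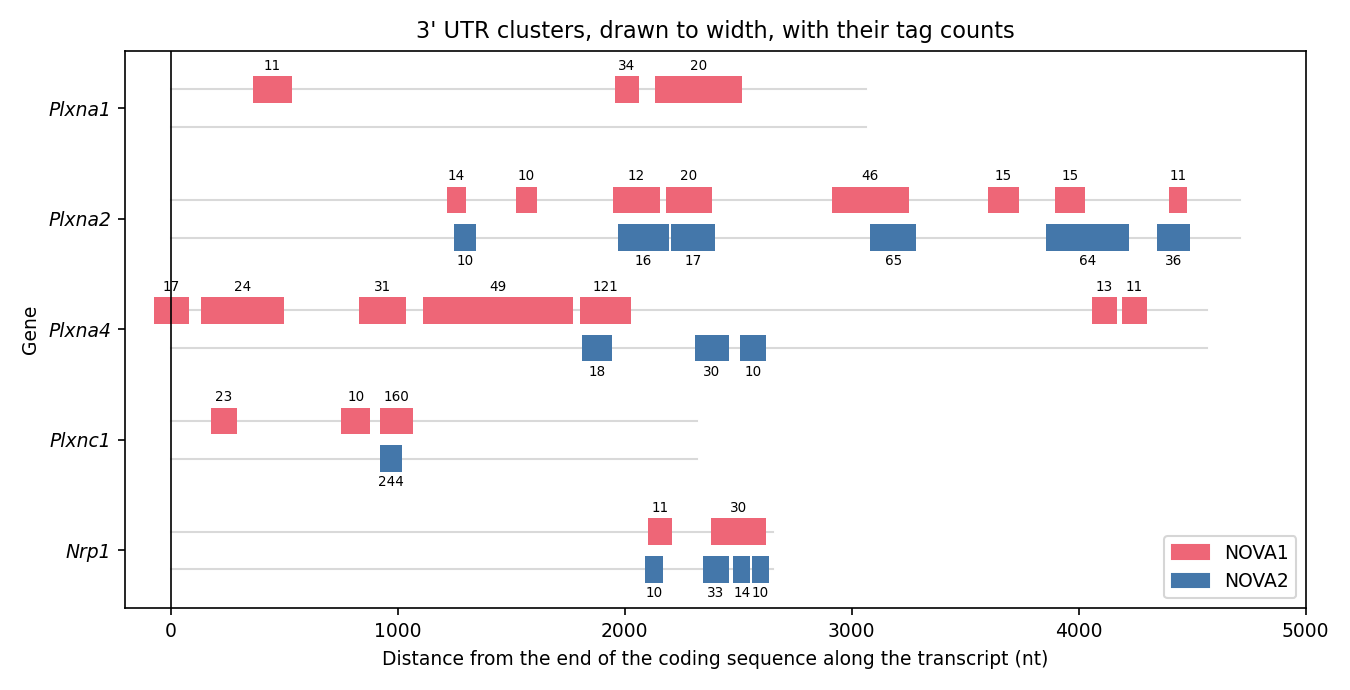
Clusters in the 3' UTR of the 5 receptor genes that had one, drawn to width against the distance in nt from the end of the coding sequence, with NOVA1 in the upper and NOVA2 in the lower row of each gene and the tag count at each cluster. Grey lines run to the annotated end of the last exon. All 6 NOVA2 clusters of Plxna2 and all 4 of Nrp1 lie under a NOVA1 cluster, whereas Plxna1 has an empty lower row.

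Taken over the family, the 2 proteins shared fewer positions than in the whole lists on the NOVA1 side. Of the 43 NOVA1 clusters, 15 (34.9%, 95% Clopper-Pearson interval 21.0 to 50.9) overlapped a NOVA2 cluster, against 80.1% of the whole NOVA1 list. On the NOVA2 side, 17 of 72 clusters (23.6%, 14.4 to 35.1) were shared, against 22.1%, which lay within the interval. The class of the clusters moved with this difference. In coding sequence, 1 of 15 NOVA1 clusters was shared (6.67%, 0.169 to 31.9) against 38.1% of the list. In 3' UTRs it was 10 of 23 (43.5%, 23.2 to 65.5) against 73.9%, and in introns 4 of 5 (80%, 28.4 to 99.5) against 95.5%. For NOVA2, 12 of 14 3' UTR clusters (85.7%, 57.2 to 98.2) and 4 of 57 intron clusters (7.02%, 1.95 to 17.0) were shared, against 64.5% and 14.1%, and its 1 coding cluster was shared where 60.1% of the list was. Without Plxna1 the NOVA1 share was 45.5% (28.1 to 63.6). The intervals hold counting error alone, and clusters of one gene share its RNA level and are not independent.

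The classes themselves differed between the proteins. Of the NOVA1 clusters, 34.9% (21.0 to 50.9) were in coding sequence, 53.5% (37.7 to 68.8) in 3' UTRs and 11.6% (3.89 to 25.1) in introns. The whole NOVA1 list had 8.65%, 37.7% and 40.3%. Plxna1 held 7 of the 15 NOVA1 coding clusters, and without this gene 8 of 33 NOVA1 clusters were in coding sequence. Of the 5 NOVA1 intron clusters, 4 were in Plxna4, and without this gene the intron share of NOVA1 was 3.33% (0.0844 to 17.2) and that of NOVA2 66.7% (49.0 to 81.4). Of the NOVA2 clusters, 79.2% (68.0 to 87.8) were in introns, 19.4% (11.1 to 30.5) in 3' UTRs and 1.39% (0.0352 to 7.50) in coding sequence, against 74.6%, 12.1% and 1.47%. The list shares include clusters outside genes, which the gene span rule leaves out of the family. Intergenic clusters were 7.37% of the NOVA2 and 5.20% of the NOVA1 list, and those within 10 kb downstream of genes 3.32% and 6.07%. List shares within genes alone would be higher, so 79.2% is not read as above 74.6%. The intron share of NOVA2 was thus within its interval of the list, and the coding and intron shares of NOVA1 were not. The base composition differed too. The median GC content was 47.7% in the NOVA1 clusters of the family against 39.4% in the list, and 42.1% against 38% for NOVA2. These medians were not matched for class, and the part of the class shares in them was not tested. Median widths were 126 nt (129 nt in the list) and 112 nt (114 nt in the list), and median tags 15 (16) and 16.5 (18). By tags, introns held 75.6% of NOVA2 tags and 8.80% of NOVA1 tags in the family. A NOVA1 coding cluster was present in 5 of the 10 genes (Plxna1, Plxna2, Plxna4, Plxnb2 and Plxnc1), against 2.31% of protein-coding genes, and a NOVA1 3' UTR cluster in 5 (Plxnc1 and Nrp1 with the 3 class A genes), against 8.22%.

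**Figure D5:**
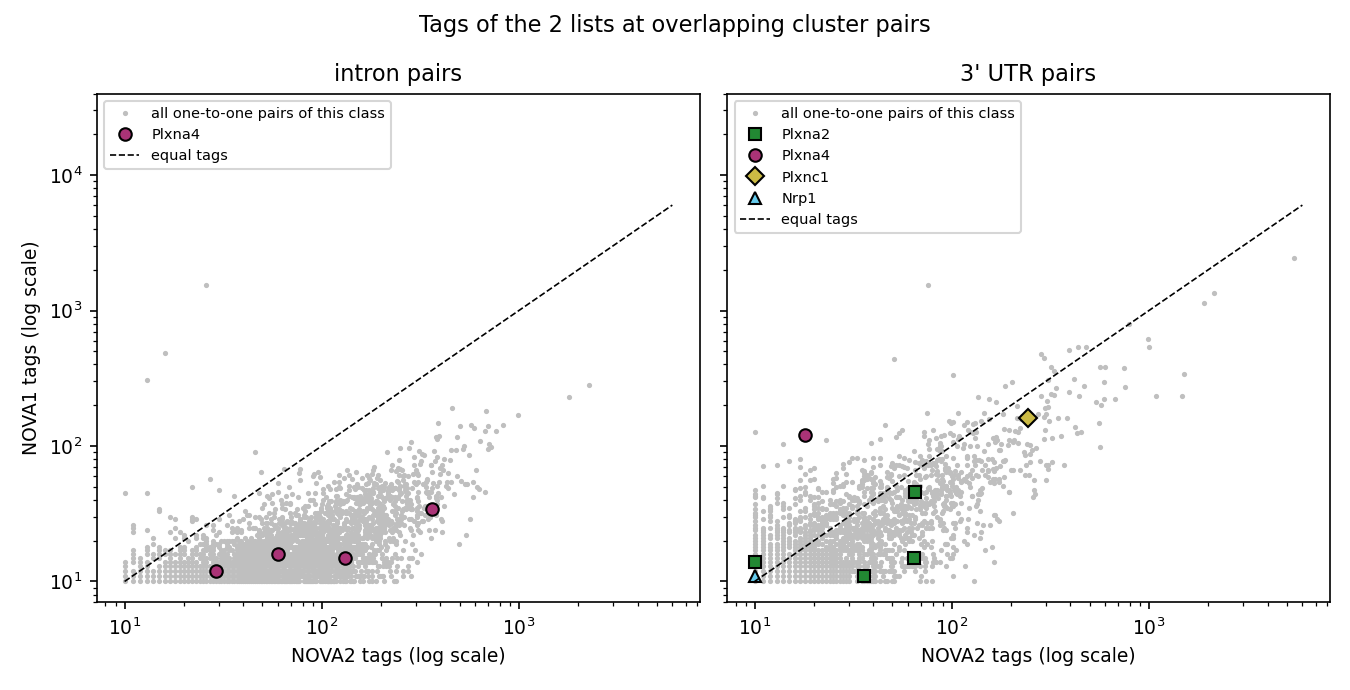
NOVA1 tags against NOVA2 tags (both log scales) at clusters that overlapped one to one, in introns (left) and 3' UTRs (right), with all pairs of both lists in grey, those of the receptor genes in colour and a dashed line at equal tags. The 4 Plxna4 intron pairs lie below the line among the other pairs, and the Plxna4 3' UTR pair with 121 NOVA1 and 18 NOVA2 tags lies far above it.

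At the 12 positions where single clusters met, the median log2 ratio of NOVA1 over NOVA2 tags was -0.94. It was -2.52 over the 4 intron pairs (range -3.41 to -1.27) and -0.50 over the 7 3' UTR pairs (-2.09 to 2.75). Over all such pairs of both lists it was -2.04 in introns (3452 pairs) and -0.40 in 3' UTRs (2146 pairs). NOVA1 had more tags at 3 of the 7 3' UTR pairs, one each in Nrp1, Plxna2 and Plxna4, and at none of the intron pairs. Its share of the tags was 52.4% at the Nrp1 pair (29.8 to 74.3) and 58.3% at the Plxna2 pair (36.6 to 77.9). Both intervals include equal tags. Across both lists NOVA1 had more at 32.2% of 3' UTR pairs and 2.03% of intron pairs. The tags are not scaled to library size, so a ratio is read against that of the other pairs and not against 0. At 8 of the 12 positions the window with most YCAY coincided in both lists.

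YCAY was denser within the clusters than beside them, for NOVA1 not resolvably so at 20 or more tags, where the fold was 1.27 (0.973 to 1.64). NOVA1 clusters had 29.0 YCAY per 1000 nt and their flanks, 200 to 500 nt away, 18.8, a fold of 1.55 (95% interval 1.30 to 1.83). The fold was 2.02 over the whole list. In the coding clusters of NOVA1 it was 1.37 (0.982 to 1.89, 1.69 over the list), so an excess was not resolved there, and in 3' UTRs it was 1.48 (1.18 to 1.84, 1.54 over the list). NOVA2 clusters had 38.1 against 18.9, a fold of 2.01 (1.76 to 2.29, 2.29 over the list), with 2.13 in introns (1.85 to 2.45) and 1.55 in 3' UTRs (1.09 to 2.17). At least 1 YCAY stood in 39 of 43 NOVA1 and 70 of 72 NOVA2 clusters, while 83.3% and 79.6% of flank windows of the same length held one. The NOVA1 clusters without YCAY were those in exon 16 of Plxna1 (12 tags), exon 6 of Plxna2 (14 tags) and exon 7 of Plxna4 (31 tags), with the 10-tag cluster in the 3' UTR of Plxna2. Those of exon 6 and exon 7 are among the clusters at aligned positions.

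Intron clusters of NOVA2 lay mostly deep in introns. Of the 57, 3 (5.26%, 1.10 to 14.6) began or ended within 500 nt of an exon, against 9.29% of the NOVA2 intron clusters of the list, which is within the interval. These were the cluster 38 nt downstream of exon 13 of Nrp2 and the pair in Plxna2 beside exons 18 and 22. The median distance was 9899 nt (11714 nt in the list), and 40 of the 57 lay over 5 kb from an exon.

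Ligands, co-receptors and effectors of the same pathway were counted in the same way, where 12.7% of all protein-coding genes held a NOVA1 and 22.7% a NOVA2 cluster. Median spans were 156 kb for class 3 semaphorins, 26.6 kb for class 4 and 124 kb for classes 5 to 7. They were 55.3 kb for co-receptors and 65.8 kb for effectors, against 15.4 kb over all protein-coding genes. The part of gene length in these counts was not tested. Among 7 class 3 semaphorins, the secreted ligands of the neuropilin complexes, 2 held a NOVA1 and 3 a NOVA2 cluster, the most in Sema3c (2 NOVA1 and 6 NOVA2) and Sema3a (1 and 2). Among 6 class 4 semaphorins, 2 held clusters of both, Sema4f (2 and 4) and Sema4g (1 and 2). Of 7 genes of classes 5 to 7, 4 held a NOVA1 and 5 a NOVA2 cluster. Sema6d, a ligand of class A plexins, had 14 and 49 clusters, 48 of the latter in introns, and Sema5a had 3 and 9. Of 8 co-receptors, 4 held a NOVA1 and 5 a NOVA2 cluster, led by the cell adhesion molecules Chl1 (19 and 57) and Nrcam (12 and 36). Of 21 intracellular effectors, 8 held a NOVA1 and 10 a NOVA2 cluster. By NOVA2 clusters the highest was Gsk3b (8 and 20), a kinase. Farp1 (3 and 13) and Dpysl5 (8 and 13), a member of the collapsin response mediator family, came next. By NOVA1 clusters the highest were Dpysl2 (10 and 12) and Dpysl3 (10 and 8). The median number of NOVA2 clusters per gene was 0 for class 3 and class 4, 3 for classes 5 to 7, 2 for the co-receptors and 0 for the effectors, against 1.5 for the receptor genes and 0 over all protein-coding genes. Each of the 10 semaphorin genes with a cluster had more NOVA2 than NOVA1 clusters, as did 4237 of the 5275 protein-coding genes with any cluster. More NOVA1 than NOVA2 clusters were found in Plxna1, Plxnc1 and Plxnb2, in the co-receptor Cntn2 (5 and 2) and in the effector Dpysl3 (10 and 8).

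Over the whole lists, NOVA1 clusters held 304703 tags and NOVA2 clusters 1309270. Reads outside the lists were not analysed here, and these sums are not the depth of the libraries. Markers of cortical neurons held a NOVA2 cluster in 6 of 8 genes (5 clusters in Bcl11b), those of endothelial cells in 1 of 6 (1 cluster in Flt1), those of microglia in 0 of 5 and those of astrocytes and oligodendrocyte precursors in 1 of 6 (Slc1a3). The NOVA1 counts were 5 of 8, 0 of 6, 0 of 5 and 1 of 6. Of all protein-coding genes, 22.7% held a NOVA2 and 12.7% a NOVA1 cluster. With so few markers, the low counts are not read as below those shares. A gene without a cluster may still be transcribed. With counts pooled over the 3 libraries of each protein, replicate error is unknown and no difference could be tested.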

How the data were processed

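HITS-CLIP was done for NOVA1 and NOVA2 in E18.5 cortex, 3 libraries each. Per the methods and the labels, the authors aligned tags to mm9 with Novoalign (version not given in the sources used here), kept unique tags and built clusters per strand. The deposited value is a tag count per cluster, pooled over libraries and not scaled to depth. The study defines the minimum of 10 tags as peak height, and the lists do not say whether the value is all tags or the maximum depth, so sums and shares of tags inherit this limit.

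Each cluster took the GENCODE vM1 class of the largest part of its length on its strand, with coding sequence before 3' UTR, 5' UTR, noncoding exon and intron. The 3' UTR was taken to include the stop codon. Clusters of the 2 lists were shared if they overlapped by at least 1 nt. Exon and intron numbers follow the coding transcript with the longest coding sequence. Shares carry Clopper-Pearson and counts exact Poisson 95% intervals, for counting error alone, and no p-value was computed. YCAY was counted on the transcript strand against flanks 200 to 500 nt away. Further copies were sought with BLAST+ 2.17.0. Coding sequences were aligned by codon with Biopython 1.88. Other steps used Python 3.11.15, pandas 2.3.3, SciPy 1.17.1 and pysam 0.24.0. The functions were checked on simulated data, in which 803 of 803 planted overlaps and 1064 of 1064 planted motifs were found.

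The genes, the pathway and marker lists and the tests were chosen with earlier results of these data known. Clusters described singly were the highest per gene and list, every NOVA1 cluster outside introns, every one-to-one pair and NOVA2 clusters within 100 nt of a coding exon, with others named after their values were seen. Alternatives were higher tag minimums, other overlap, class, flank and distance rules, and leaving out Plxna1 or Plxna4. The sequence of 1 cluster and the values of 1 marker gene are not reported here.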

Additional observations from a re-analysis of the deposited data

How the results depend on the processing

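Over 12 results and 52 alternative values, 44 stayed within the counting interval, or for counts within 1.5 times, of the value reported. A reversal was looked for only in the log2 tag ratio, where 0 were found. Raising the minimum of the NOVA2 list alone leaves the NOVA1 list unchanged, so NOVA1 counts and intron share could not move there. With both lists at 20 or more tags, the receptor genes held 15 NOVA1 and 30 NOVA2 clusters, 13.3% of the NOVA2 clusters were shared (3.76 to 30.7, with 18.3% over the whole list), and the YCAY fold of NOVA1 was 1.27 (0.973 to 1.64), an excess no longer resolved. With the NOVA2 list at 25 or more tags, 28 NOVA2 clusters remained and 20.9% of the NOVA1 clusters were shared, where the whole NOVA1 list had 60.8%. Without Plxna4, a setting chosen after seeing the data, the intron share was 3.33% for NOVA1 and 66.7% for NOVA2. Every other setting, such as the overlap rule, the strand, the class at the midpoint and the flanks, left its result within those bounds. The cause of the moves was not tested. At the minimum of 10 tags, 25 of the 43 NOVA1 and 33 of the 72 NOVA2 clusters had at most 15 tags, and sites below 10 tags are not seen. No paired analysis was possible because each list gives 1 value per cluster, pooled over its 3 libraries, and leaving out a library could not be tried either.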
